A study of Mus musculus with 2 samples.

Results

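The regions described here are the p300 peaks on mouse chromosome 13 (build mm9), 414 in number of the 6383 peaks listed over all chromosomes. They were chosen by position alone, as every chromosome 13 peak of the 2 deposited lists: 193 of the 3597 heart peaks and 221 of the 2786 midbrain peaks. The chromosome was singled out because earlier results of these data had shown many midbrain peaks on it, so its totals are a description and were not tested. The series used chromatin immunoprecipitation followed by sequencing (ChIP-seq) on 2 tissues, heart and midbrain, of CD-1 mouse embryos (an outbred strain) of both sexes at embryonic day 11.5, with 1 library per tissue. Each library was made from tissue of about 150 embryos, pooled, so that differences between embryos and between cell types within a tissue cannot be seen, and fewer cells of a type and less binding per cell cannot be told apart. With 1 library per tissue there is no replicate check on any difference, no test between tissues was possible, and each statement about a tissue is one about its library.

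p300 is a lysine acetyltransferase that DNA-binding transcription factors recruit as a coactivator. It acetylates histones, and its binding away from promoters is widely used to find active enhancers, the elements that switch genes on in particular tissues. Genes that direct development often have many such elements, spread within and around the gene and each active in its own tissue. Peaks of one tissue therefore often come in groups along a chromosome, and groups of different tissues can lie side by side. Mouse chromosome 13 carries regulators of both tissues. In the RefSeq gene order of GRCm38.p6, some of the 30 developmental genes chosen for this work follow each other as Gli3, Sox4, Foxc1, Tfap2a, Edn1, Jarid2, Id4, Gadd45g, Msx2, Neurog1, Ptch1, Irx1, Irx4, Nr2f1, Mef2c, Otp, Enc1, Isl1 and Fgf10. Among them Mef2c and Isl1 encode transcription factors of heart development, Irx4 marks the ventricle, and Nr2f1 and Otp encode transcription factors of the developing brain. That order is background only: no gene positions on mm9 were used, so no peak is assigned to a gene.

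Aligned reads numbered 1303861 for the heart and 5869671 for the midbrain, of which 61412 and 279629 lay on chromosome 13. These were 4.73% and 4.78% of the reads on chromosomes 1 to 19 and X. One read corresponded to 0.767 rpm (reads scaled to library size, the usual RPM unit) for the heart library and 0.170 rpm for the midbrain library, and the limit that a count of 0 allows (3 reads) was 2.30 and 0.511 rpm. The 95% intervals given below are exact binomial ones and cover counting error only, since each tissue has 1 library. They treat reads as independent molecules, which could not be checked, although no position and strand repeats within a library.

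The midbrain list had 221 peaks on chromosome 13 where the chromosome's share of midbrain reads predicts 133, an excess of 87.8 peaks and a ratio of 1.66 (interval 1.45 to 1.88). The heart list had 193 where 170 are predicted, a ratio of 1.13 (interval 0.984 to 1.301). Predicted instead from the share of 10 kb bins that hold reads, the heart ratio was 1.17 with an interval (1.01 to 1.34) that did not include 1. On the other 18 autosomes the midbrain ratio ran from 0.730 on chromosome 15 to 1.32 on chromosome 18, with a median of 0.946. Chromosome 13 therefore stood highest of all chromosomes in the midbrain list, and the third highest in the heart list. Among the best-ranked peaks the excess was also present: 89 of the 1000 best-ranked midbrain peaks lay on chromosome 13 where 47.8 are predicted, a ratio of 1.86 (interval 1.51 to 2.27). For the heart 51 of the 1000 best-ranked lay there, with 47.3 predicted. The median rank of a chromosome 13 peak was 1191 in the midbrain list and 1703 in the heart list, against medians of 1393.5 and 1799 over the whole lists, where rank 1 is the best. Peaks lie in groups and are not independent, so the intervals of such ratios are too narrow.

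The chromosome was then divided into bins of 1 Mb, with each peak placed by its centre, to see where the excess sits. Of the 118 bins that held reads, 92 held a peak of either list and 26 held none. Midbrain peaks outnumbered heart peaks in 42 bins, heart peaks outnumbered midbrain peaks in 35, and 15 bins held equal numbers. The reads of a bin predicted at most 2.29 heart and 1.60 midbrain peaks, so a bin with 4 or more peaks of a list stood above its prediction. The bin at 84 to 85 Mb held the most midbrain peaks, 13 where 1.42 are predicted, and had 1 heart peak. Next came 78 to 79 Mb with 12 midbrain peaks and no heart peak, 28 to 29 Mb with 11 midbrain and 3 heart peaks, and 34 to 35 Mb with 10 and 4. Of the 2649 bins of all chromosomes, 6 held more midbrain peaks than the bin at 84 to 85 Mb.

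The excess was spread over many bins. Ordered by peaks above prediction, the first 4 bins held 46 midbrain peaks in 21 loci and 45.7% of the net excess. The first 12 bins held 103 peaks and 97.8% of it, and over the rest of the chromosome midbrain peaks stood at 1.02 times the prediction. The net excess joins 135.3 peaks over the bins above prediction with -47.6 over the bins below it. Of the 135.3 peaks the first 12 bins held 85.8, and with 13 bins the running sum was already above the net excess. A locus here is a set of peaks of 1 list in which each centre lies within 50 kb of the next, and those 12 bins held 51 midbrain loci. The counts themselves set this order, so these shares are a description. Taking out the fullest bins lowers the ratio of any chromosome. Without its 5 fullest bins chromosome 13 still had 1.32 times the predicted midbrain peaks, while the other autosomes treated the same way ran from 0.476 to 1.03. The heart list had a net excess of 22.9 peaks, which its 5 fullest bins alone exceeded: they held 34 heart peaks, and the rest of the chromosome stood at 0.991. The other autosomes treated the same way ran from 0.693 to 1.13 in the heart list, with a median of 0.837. Only chromosomes 4 and 11 stood higher than chromosome 13 there.

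**Figure D1:**
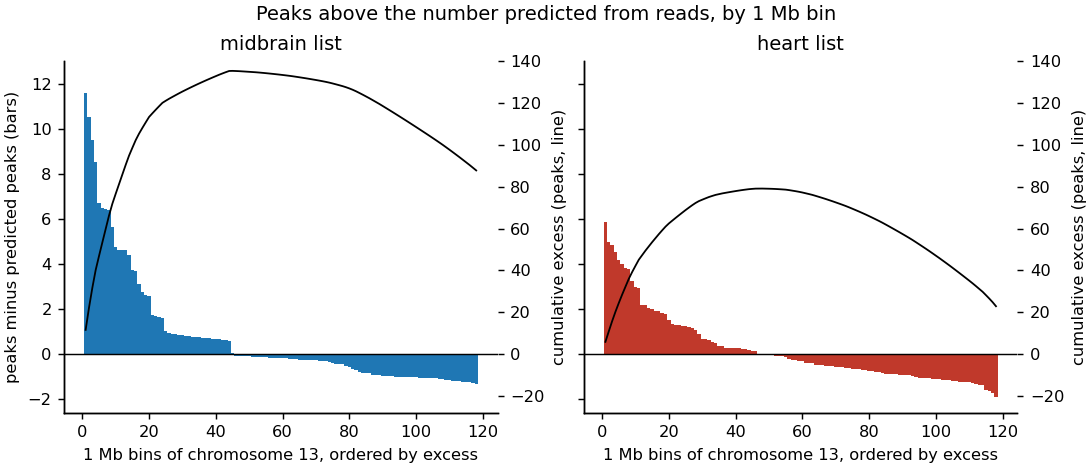
Peaks minus the number predicted from reads in each 1 Mb bin of chromosome 13 (bars, left axis), with bins ordered by that difference for the midbrain list and the heart list, and the running sum (black line, right axis). The tallest midbrain bar is 11.6 peaks and the tallest heart bar 5.86, and the lines end at 87.8 and 22.9 peaks.

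Along the chromosome the midbrain excess was largest in 3 windows of 10 Mb. Between 20 and 30 Mb the midbrain list had 34 peaks with 12.6 predicted, and between 70 and 90 Mb it had 27 and 28 peaks in the 2 windows, with 11.6 and 11.5 predicted. Heart peaks between 20 and 30 Mb were above prediction as well, 22 against 15.1, while in the other two windows they numbered 11 and 6, with 12.2 and 10.9 predicted. The heart list stood farthest above its prediction between 40 and 60 Mb, with 33 peaks against 19.3 and 30 against 17.7. Midbrain peaks were above prediction there too, by 6.04 and 10.7 peaks. Near the start of the chromosome, between 10 and 20 Mb, both lists were below prediction, with 8 heart and 4 midbrain peaks.

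Bins with at least 4 peaks of both lists together were sorted by which list had at least 3 times as many peaks. Of these 43 bins, 9 were midbrain-biased (20.9%), 11 were heart-biased (25.6%) and 23 were mixed (53.5%). Over all chromosomes 666 bins had at least 4 peaks, of which 20.3% were midbrain-biased, 39.2% heart-biased and 40.5% mixed. The share of midbrain-biased bins was thus near that of all chromosomes. Midbrain peaks exceeded the prediction by 61.4 in the 9 midbrain-biased bins and by 63.3 in the 23 mixed bins. The same difference was -5.24 in the 11 heart-biased bins and -31.7 in the 75 bins with fewer than 4 peaks. The same peak counts set the classes, so the signs of these differences follow in large part from the classes and are a description. The division of the excess between classes also depended on the limit. With 2 times as many peaks, the excess was 89.9 in 15 midbrain-biased bins and 33.0 in 16 mixed bins. The 6 bins that became midbrain-biased, such as 34 to 35 Mb, held both lists with midbrain peaks the more numerous. At that limit 12 bins were heart-biased, with the bin at 51 to 52 Mb (7 heart and 3 midbrain peaks) added. Of the 9 bins that were midbrain-biased at 3 times, 8 held heart peaks as well.

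**Figure D2:**
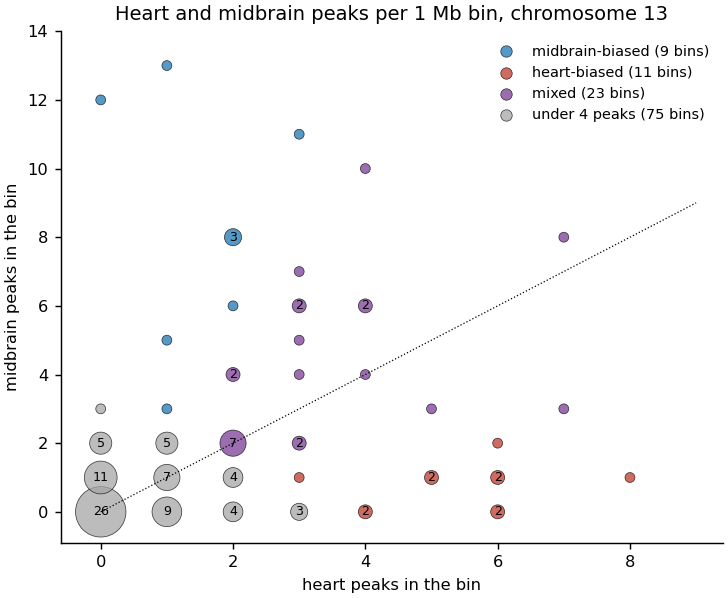
Heart peaks (horizontal axis) and midbrain peaks (vertical axis) in each 1 Mb bin of chromosome 13 that held reads, with the area of a circle and the number in it giving the bins at that point (1 where no number stands), coloured by class; the dotted line marks equal numbers. The bins at 84 to 85 Mb and 78 to 79 Mb stand at the upper left with 13 and 12 midbrain peaks, and 26 bins had no peak.

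The 9 midbrain-biased bins held 74 midbrain and 14 heart peaks. Besides the bins at 84 to 85, 78 to 79 and 28 to 29 Mb they were the bins at 83 to 84, 59 to 60 and 44 to 45 Mb, each with 8 midbrain and 2 heart peaks, and 60 to 61 Mb with 6 and 2. Smaller ones were 37 to 38 Mb with 5 and 1, and 43 to 44 Mb with 3 and 1. In the bin at 78 to 79 Mb the 12 midbrain peaks held 245 midbrain reads and 9 heart reads in all. In the bin at 84 to 85 Mb the 13 midbrain peaks held 375 and 17.

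Heart-biased bins held 59 heart and 8 midbrain peaks. The fullest was 46 to 47 Mb, with 8 heart peaks and 1 midbrain peak, and next to it 45 to 46 Mb had 6 heart peaks and none of the midbrain. Another pair of neighbours were 52 to 53 Mb, with 6 heart and 2 midbrain peaks, and 53 to 54 Mb, with 6 and 1. The bin at 12 to 13 Mb had 6 heart peaks and no midbrain peak, and that at 5 to 6 Mb had 6 and 1. The bins at 24 to 25 Mb and 113 to 114 Mb had 4 heart peaks each and no midbrain peak. Those at 41 to 42 and 115 to 116 Mb had 5 heart peaks and 1 midbrain peak each, and 58 to 59 Mb had 3 and 1.

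Mixed bins held 74 heart and 94 midbrain peaks. The fullest was 29 to 30 Mb with 7 heart and 8 midbrain peaks, followed by 34 to 35 Mb and by 51 to 52, 63 to 64, 100 to 101 and 103 to 104 Mb with 10 peaks each. Of those 4 the bin at 51 to 52 Mb leaned to the heart (7 heart and 3 midbrain peaks), as did 94 to 95 Mb (5 and 3), and the other 3 leaned to the midbrain with 6 or 7 midbrain peaks against 3 or 4. At 72 to 73 and 98 to 99 Mb there were 3 heart and 6 midbrain peaks, and at 48 to 49 Mb 4 of each. In the 13 mixed bins not yet named the heart list had 2 or 3 peaks and the midbrain list 2 to 5.

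The background of the libraries also differed between bins. Outside all listed peaks, midbrain over heart reads (each scaled to the library's reads outside peaks) had a median of 0.899 in the midbrain-biased bins, with a range of 0.811 to 1.59, and of 0.803 in the heart-biased bins, with a range of 0.678 to 1.13. The median was 0.953 in the mixed bins and 1.11 in the bins with fewer than 4 peaks, both above that of the midbrain-biased bins. With the reads of each class pooled, the mixed bins stood below the midbrain-biased bins instead. The pooled ratio was 1.02 (interval 0.992 to 1.05) in midbrain-biased and 0.944 (interval 0.927 to 0.962) in mixed bins. It was 0.817 (interval 0.797 to 0.839) in heart-biased bins and 1.07 (interval 1.06 to 1.09) in bins with fewer than 4 peaks. The bins at 78 to 79 and 84 to 85 Mb, with the most midbrain peaks, had the highest values of all 43 bins, 1.59 (interval 1.43 to 1.77) and 1.58 (interval 1.41 to 1.77). They held 391 and 363 heart reads outside peaks, where the median of the mixed bins was 622. Across the 43 bins the midbrain share of the peaks followed this ratio with a Pearson r of 0.55 and a Spearman rho of 0.49, and with r = 0.43 without the 2 bins farthest from the median. Bins of 1 library pair are not replicates, so no p-value is given. Bins with fewer than 4 peaks reached 2.18, in a bin with no peak of either list, and the bin at 79 to 80 Mb, with 1 midbrain peak, had 1.66. The part of this background in the number of listed peaks was not tested.

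**Figure D3:**
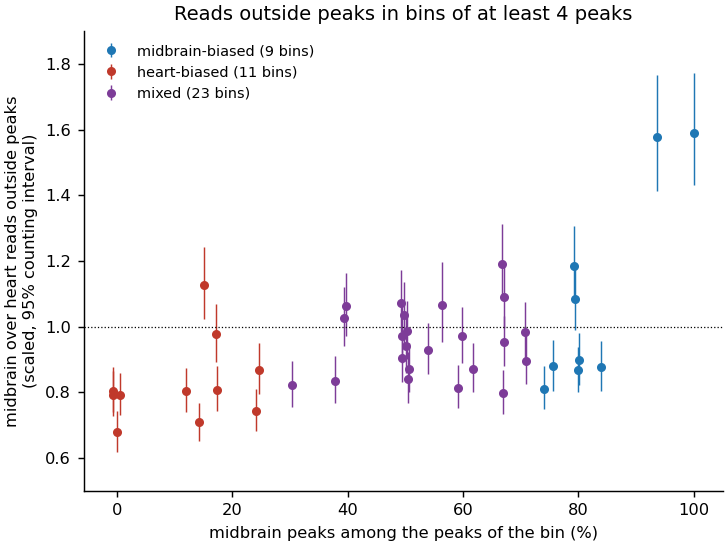
Midbrain over heart reads outside all listed peaks (vertical axis, scaled to each library, with 95% counting intervals) against the percentage of midbrain peaks among the peaks of a bin (horizontal axis, points moved slightly sideways), for the 43 bins of at least 4 peaks. The bins at 78 to 79 and 84 to 85 Mb stand at 1.59 and 1.58, above all other bins.

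The number of separate places was counted next. The 221 midbrain peaks formed 145 loci, and the 193 heart peaks formed 143. Of the midbrain loci 99 were single peaks, 29 were pairs and 17 held 3 or more peaks, 64 peaks in all. The heart had 106 single peaks, 28 pairs and 9 loci of 3 or more, with 31 peaks. Midbrain loci on chromosome 13 were 1.49 times as many as the read share predicts from the 2038 loci of the whole list (interval 1.26 to 1.74), 145 against 97.5. On the other autosomes this ratio ran from 0.758 to 1.16. The midbrain excess was thus present when each locus counted once, and loci were also fuller, at 1.52 peaks per locus against 1.37 over the whole list. Fuller loci were not particular to chromosome 13, since chromosome 18 had more peaks per locus, with 139 midbrain peaks in 87 loci. For heart loci the ratio was 1.16 (interval 0.984 to 1.36), with 1.35 peaks per locus against 1.38.

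The midbrain loci with the most peaks, ties being ordered by best rank, began with a pair of 7 peaks each. One lay on chromosome 13 at 83859753 to 83882653, spanning 22.9 kb, and its peaks held 338 midbrain reads and 13 heart reads, a midbrain over heart ratio of 5.78 after scaling (interval 3.33 to 11.0). Most of its reads were in adjoining peaks at 83877580 to 83881865 (rank 7, 141 midbrain and 4 heart reads) and 83874216 to 83877531 (rank 53, 83 and 1 reads). The peaks of this locus were separated by gaps of less than 1 kb in 3 places, and joining such peaks would lower its count. The other locus of 7 peaks, at 78316336 to 78347983, was more even. Its peaks held between 15 and 34 midbrain reads and 0 to 2 heart reads each, 157 and 8 in all, a ratio of 4.36 (interval 2.16 to 10.3), and the best had rank 189. Neither locus had a heart peak within 50 kb.

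Smaller midbrain loci followed. That at 60246818 to 60276567 had 5 peaks of rank 781 or worse, with 89 midbrain and 5 heart reads. At 28501933 to 28510047 lay 4 peaks, among them one of rank 8 at 28507650 to 28508848 with 68 midbrain reads and 1 heart read. Its neighbours within the locus, at 28509004 to 28509449 and 28509506 to 28510047, overlapped a heart peak of rank 73. The second of these held 10 heart and 9 midbrain reads, so that a site with reads on the midbrain side and a site with reads on the heart side lay within 3 kb of each other. At 28861316 to 28903809 were 4 peaks with 97 midbrain and 3 heart reads, and no heart peak lay within 50 kb.

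The 5 heart loci with the most peaks had 3 to 5 peaks each and 16.9 to 20.7 rpm of heart reads. The midbrain loci just described had 15.2 to 57.6 rpm of midbrain reads, with 26.7 and 57.6 rpm in the loci of 7 peaks and at most 18.1 rpm in the other three. The heart locus with the most peaks, at 12144107 to 12226496, had 5 heart peaks over 82.4 kb with 5 to 7 heart reads each, 27 heart and 12 midbrain reads in all, so that scaled heart reads were 10.1 times those of the midbrain (interval 4.96 to 21.9). Its best rank was 1164. At 5862145 to 5869186 lay 4 heart peaks within 7.04 kb, with 22 heart and 12 midbrain reads, and at 41739034 to 41801652 another 4, with 23 and 18. Ties were ordered by best rank, so the loci of 3 peaks named next had the best ranks of the heart loci of that size. In the other heart loci of 3 peaks the best rank ran from 217 to 1226. At 46618566 to 46668435 the heart had 25 reads and the midbrain 5, a ratio of 22.5 (interval 8.46 to 75.3), with a best rank of 65. At 51909112 to 51944492 the heart had 26 reads and the midbrain 21, and 2 of the 3 heart peaks there overlapped a midbrain peak.

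Joined across both lists by the same distance, the 414 peaks formed 256 loci, of which 111 held heart peaks only, 114 midbrain peaks only and 31 peaks of both. The loci with both lists held 98 peaks, 47 of the heart and 51 of the midbrain. Of the 96 loci in mixed bins 22 held peaks of both lists, 32 heart peaks only and 42 midbrain peaks only. Most loci in mixed bins thus held peaks of 1 list only, although 22 of the 31 loci with both lists lay in these bins. Over the whole chromosome the nearest midbrain peak lay a median of 193 kb from a heart-only peak. The nearest heart peak lay a median of 140 kb from a midbrain-only peak. The fullest loci with both lists had 5 peaks each, at 28501933 to 28510531, 29040104 to 29051072, 51909112 to 51944653 and 100213942 to 100284225.

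Reads of both libraries were then counted within each peak. Heart-only peaks (179, those that no midbrain peak overlaps by 1 bp or more) held a median of 6 heart reads (quartiles 5 and 7, range 1 to 17) and 3 midbrain reads (range 0 to 12). Midbrain-only peaks (206) held a median of 17 midbrain reads (quartiles 13 and 25, range 5 to 141) and 1 heart read (range 0 to 6). The heart library had 9.19 times the scaled reads of the midbrain at heart-only peaks (interval 8.29 to 10.2), with 4.77 against 0.519 rpm per peak. At midbrain-only peaks the midbrain library had 4.68 times the scaled reads of the heart (interval 4.09 to 5.38), with 3.89 against 0.830 rpm. Since the lists were made from these reads, a high level of each library at its own peaks is no finding. On the other chromosomes the values were 9.36 (interval 9.14 to 9.59) and 4.25 (interval 4.08 to 4.42).

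Peak by peak, 162 of the 179 heart-only peaks (90.5%) had a ratio whose interval was wholly on the heart side, where over all chromosomes 92.5% of heart-only peaks did. It was on the midbrain side at 57 of the 206 midbrain-only peaks (27.7%), against 22.5% over all chromosomes, and at 18 when reads were counted only in 500 bp about the peak centre. At all other heart-only and midbrain-only peaks of the chromosome it included 1. The low count on the midbrain side goes with the depth of the heart library: 86 midbrain-only peaks (41.7%) held no heart read, which allows up to 2.30 rpm there, and the median peak had 17 midbrain reads (2.90 rpm). With no heart read, at least 19 midbrain reads are needed to place the interval on the midbrain side, and 116 of the 206 peaks had fewer, so that at this depth no excess of the midbrain was detectable there. For the heart list 3 heart reads suffice where the midbrain has none. Of the heart-only peaks, 22 (12.3%) held no midbrain read.

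**Figure D4:**
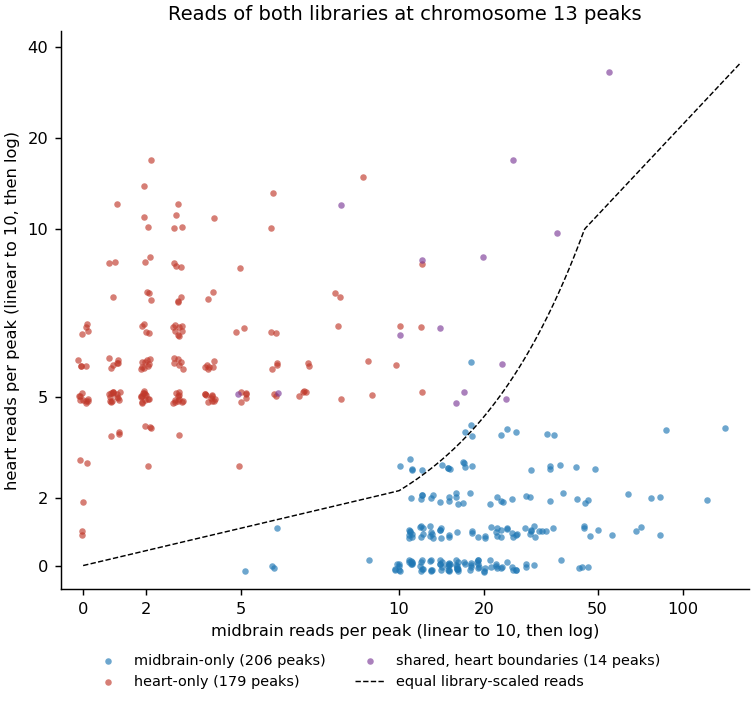
Midbrain reads (horizontal axis) and heart reads (vertical axis) at each chromosome 13 peak, on axes that are linear to 10 reads and logarithmic above, with points moved slightly at random; the dashed line marks equal rpm. Heart-only peaks hold at most 12 midbrain reads and midbrain-only peaks at most 6 heart reads, and the shared peak with 33 heart and 55 midbrain reads stands apart at the upper right.

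The ratio at midbrain-only peaks was 4.96 in midbrain-biased bins (interval 3.94 to 6.33, 70 peaks), 3.81 in mixed bins (interval 3.11 to 4.72, 83 peaks) and 6.85 in heart-biased bins (interval 3.27 to 17.3, 8 peaks). In bins with fewer than 4 peaks it was 5.86 (interval 4.31 to 8.18, 45 peaks), and all 4 intervals overlapped. Heart-only peaks had ratios of 9.74 in heart-biased bins (interval 8.11 to 11.7), 7.36 in mixed bins (interval 6.24 to 8.70) and 10.8 in midbrain-biased bins (interval 7.09 to 16.9). In bins with fewer than 4 peaks it was 11.8 (interval 9.42 to 14.9), and this interval did not overlap that of the mixed bins. By rank, midbrain-only peaks in the better-ranked part of the list had a ratio of 5.51 (interval 4.65 to 6.56, 112 peaks), and those in the worse-ranked part 3.27 (interval 2.61 to 4.14, 94 peaks). Ranks belong to the lists themselves, so this gradient is not independent of the choice of peaks.

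The best-ranked midbrain peak of the chromosome lay at 36373670 to 36376381, with rank 3, 121 midbrain reads and 2 heart reads (midbrain over heart ratio 13.4, interval 3.64 to 112). Its nearest heart peak was 605 kb away, from centre to centre. The peak of rank 10, at 52014846 to 52016773, held 83 midbrain and 2 heart reads, yet lay in the heart-biased bin at 52 to 53 Mb, 16.8 kb from the nearest heart peak. Others were at 84710417 to 84711961 (rank 26, 64 and 2 reads), 98020261 to 98023078 (rank 29, 87 and 4 reads) and 39972420 to 39974378 (rank 30, 71 midbrain reads and 1 heart read). The peak at 71297118 to 71298365 (rank 77) had 46 midbrain reads and no heart read, and its ratio had a lower bound of 2.66. Well-ranked midbrain peaks thus lay both in crowded bins and alone, those at 36373670 and 39972420 being the only midbrain peaks of their bins.

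Among heart-only peaks the highest lower bound of the heart over midbrain ratio was at 73435822 to 73437168 (rank 45), with 17 heart reads and 2 midbrain reads, a ratio of 38.3 (interval 9.08 to 341). The peak at 43291408 to 43292447 (rank 159) had 12 heart reads and 1 midbrain read (ratio 54.0, interval 7.99 to 2309). That at 46667409 to 46668435 (rank 65) had 14 and 2 (ratio 31.5, interval 7.24 to 286). A lower bound of 6.49 was shared by 4 peaks with 7 heart reads and no midbrain read, at 29729729 to 29730344, 93907930 to 93908697, 73612669 to 73613467 and 60387955 to 60388906, the last being tied at the limit of 6 named peaks and having the worst rank (1567). The heart peak of rank 42, at 34919576 to 34920379, had 13 heart and 6 midbrain reads and lay with its centre only 0.861 kb from that of a midbrain peak that it did not overlap. Other heart-only peaks of good rank were at 103435841 to 103437020 (rank 68, 15 and 9 reads) and 57678958 to 57679547 (rank 80, 10 and 2 reads). Intervals this wide fix the side of a ratio but not its size. At the other end, 2 heart peaks of the chromosome held 1 heart read each.

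The library that did not choose a peak was also set against its own density 5 to 10 kb away, so that the reads counted are not those the list was made from, although peaks listed in both tissues were left out. In heart-only peaks the density of midbrain reads was 1.56 times that of these flanks (interval 1.42 to 1.70). In midbrain-only peaks that of heart reads was 1.76 times (interval 1.52 to 2.03). Both intervals lay above 1, so that each library had some reads above its background at peaks listed for the other tissue alone. On the other chromosomes the values were 1.66 (interval 1.62 to 1.69) and 1.94 (interval 1.86 to 2.03). Each library at its own peaks stood at 11.3 (heart, interval 10.4 to 12.2) and 7.12 (midbrain, interval 6.86 to 7.38) times its flanks.

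**Figure D5:**
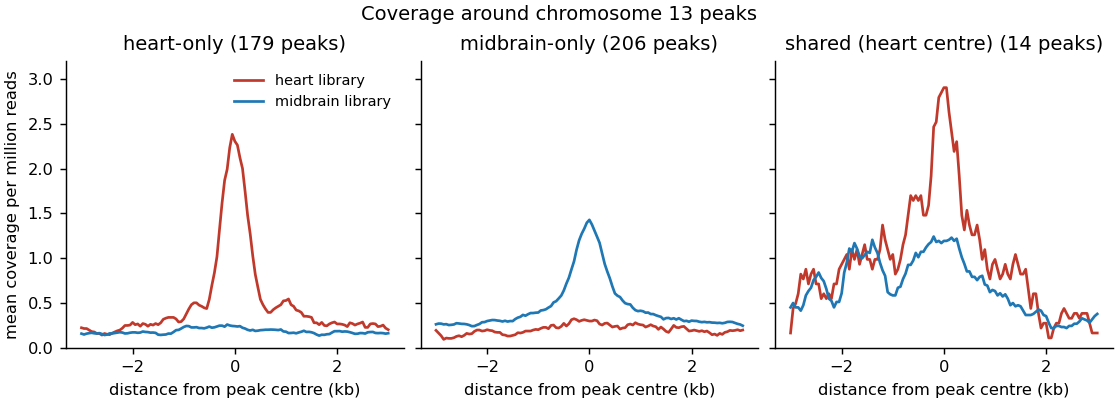
Mean coverage from the deposited tracks, scaled to library size as rpm is, within 3 kb of the centres of 179 heart-only, 206 midbrain-only and 14 shared heart peaks of chromosome 13, for the heart library (red) and the midbrain library (blue). At the centre the heart library reached 2.31 in heart-only peaks where the midbrain library had 0.241, the midbrain library reached 1.43 in midbrain-only peaks where the heart library had 0.298, and both rose in shared peaks, to 2.90 and 1.19.

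Peaks common to both lists were few. On chromosome 13 they were 14 heart peaks (7.25%, interval 4.02 to 11.9) and 15 midbrain peaks (6.79%, interval 3.85 to 10.9), against 4.11% and 5.46% on the other chromosomes, whose intervals (3.47 to 4.84 and 4.61 to 6.41) overlapped these. With a reciprocal overlap of 50% the midbrain share was 2.71%. Of the shared peaks 11 of each list lay in mixed bins, 3 heart and 4 midbrain peaks in midbrain-biased bins, and none in heart-biased bins. Mixed bins held 74 of all 193 heart peaks and 94 of all 221 midbrain peaks. Shared peaks add to the counts of both lists in a bin, so their place is not independent of the classes. Within the heart boundaries the heart library had 2.24 times the scaled reads of the midbrain (interval 1.81 to 2.77), and by peak the heart was higher beyond the interval at 6, while 8 intervals included 1. Within the midbrain boundaries the midbrain over heart ratio was 0.710 (interval 0.583 to 0.871), so that the heart library was the higher there too. By peak the heart was higher beyond the interval at 3, and 12 intervals included 1. A shared peak also had to be in the heart list, whose chromosome 13 peaks had a lower quartile of 3.83 rpm of heart reads. For the midbrain list it was 2.21 rpm of midbrain reads, so the side of these ratios is not independent of the choice of peaks.

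The shared peak with the most reads was the top-ranked peak of the heart list, at 81023719 to 81025344, with 33 heart and 55 midbrain reads. Its midbrain partner, at 81022574 to 81024919, has rank 9 and held 37 and 94 reads, so that the scaled heart reads were 1.77 times as many (interval 1.18 to 2.62). A second shared pair lay beside it, the heart peak at 81025538 to 81026042 (rank 490, 7 and 10 reads) and the midbrain peak at 81025479 to 81026816. The heart peak at 28509007 to 28510531 (rank 73) held 17 heart reads, with 25 from the midbrain. Its ratio was 3.06 (interval 1.55 to 5.90), and it overlapped 2 narrow midbrain peaks of ranks 2689 and 2454. At 51943040 to 51943807 (rank 64) and 51943900 to 51944492 (rank 145) adjoining heart peaks held 12 and 9 heart reads, with ratios of 6.75 and 3.38, and met midbrain peaks of ranks 1959 and 2461.

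At some other shared sites the midbrain peak had a better rank than the heart peak. The heart peak at 29042050 to 29043199 (rank 569) held 10 heart and 36 midbrain reads, a ratio of 1.25 (interval 0.553 to 2.57), and its midbrain partner has rank 125. At 29041106 to 29041804 the ranks were 3271 and 182, with 5 and 24 reads, and at 22142234 to 22143019 they were 1685 and 168, with 6 and 23 reads. The opposite order held for the heart peaks at 28809837 to 28810635 (ranks 344 and 1086) and 94609132 to 94609718 (ranks 505 and 642), which had 9 and 7 heart reads and 20 and 14 midbrain reads, and their ratios had intervals that included 1. The remaining 4 shared heart peaks held 5 heart reads each and 5 to 17 midbrain reads, among them the only heart peak of the bin at 84 to 85 Mb, at 84488223 to 84488857.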

How the data were processed

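Each library is a set of 36 bp reads. The authors deposited 3 files per tissue on mm9 (build per the submitters' processing notes): read positions, a coverage track and a ranked peak list without scores, so peaks are described by rank. Each line of the deposited positions has a count of 1 read, nearly all lengthened to 300 bp. No position and strand repeats within a library. The coverage tracks hold whole-number coverage (signal) at 25 bp steps, per the file headers. How peaks were called, and against which control, is not given in the sources used here. Per the labels' protocols, DNA of 300 to 500 bp was selected on a gel; heart is not among the tissues that text names. The labels could not be checked against marker genes, because no mm9 annotation or genome was used, and no peak sequence is printed for the same reason.

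Reads were placed 18 bp from their 5 prime end, at the middle of the aligned bases. Offsets estimated between strands were nearly flat and gave no reliable fragment length. Reads were scaled to all aligned reads. Ratios carry exact conditional binomial intervals and shares exact Clopper-Pearson intervals at 95%. Flanks leave out bases within listed peaks. Predicted peaks of a bin or chromosome are the list length times its share of the library's reads on chromosomes 1 to 19 and X. The counting, joining, overlap and interval steps were tested on simulated or small constructed inputs with known answers. Software was scipy 1.17.1, pandas 2.3.3, numpy 2.4.6 and matplotlib 3.10.9 under Python 3.11.15.

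Named by rule were every bin of at least 4 peaks, the 5 loci with the most peaks per list, the 8 best-ranked peaks per list, the shared peaks (the 10 pairs with the most summed rpm in full), and 6 peaks per list whose ratio had the highest lower bounds. Some mixed bins were given only by the range of their counts. The members, lists and rules were chosen with earlier results of these data known. Alternatives were another read shift, fixed windows, other scaling, flanks, joining distances, overlap and bias limits, moved bins, and lists cut by rank.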

Additional observations from a re-analysis of the deposited data

Results flagged for a closer look

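Reads outside every listed peak of chromosome 13 were also counted in windows of 500 bp. There were no control samples to compare with, so the windows are listed by their summed rpm alone. Each of those listed also held more than the 3 reads that a count of 0 allows, in both libraries. The 3 windows with the highest summed rpm, chosen for their values, lay at 9011001 to 9011500 with 50 heart and 20 midbrain reads, at 77578001 to 77578500 with 25 heart and 102 midbrain reads, and at 97960501 to 97961000 with 28 heart and 25 midbrain reads. Their heart over midbrain ratios were 11.25 (interval 6.58 to 19.96), 1.103 (interval 0.682 to 1.72) and 5.04 (interval 2.83 to 9.02). Listed peaks of the chromosome held at most 37 heart and 141 midbrain reads. In all, 27 windows outside peaks held at least 6 heart reads and 8 held at least 17 midbrain reads, the medians of listed peaks. Listed peaks were wider than these windows, with median widths of 685 bp (heart) and 739 bp (midbrain). Of the windows on listed peaks, 43 reached the heart count and 54 the midbrain count.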

How the results depend on the processing

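Of 43 alternatives, 40 left a value within its interval or a count within 1.5 times, 3 moved and none turned a direction. Counted in 500 bp about the peak centre, 18 and not 57 midbrain-only peaks had the interval on the midbrain side. With a limit of 2 times as many peaks, 15 and not 9 bins were midbrain-biased, all 6 added bins having been mixed. With a reciprocal overlap of 50%, 2.71% of the midbrain peaks were shared. The heart ratio of peaks to prediction ran from 1.08 to 1.17, its interval including 1 except for prediction from 10 kb bins. The midbrain ratio of peaks to prediction ran from 1.49, for loci, to 1.86, for the 1000 best-ranked peaks. After joining peaks less than 1 kb apart, 6 of the 9 midbrain-biased bins kept that class. Counting noise in the heart library limits every ratio at midbrain peaks. No paired analysis was possible because each tissue has 1 library and no result comes from a test.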
